A study of Homo sapiens with 16 samples.

Results

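Kinesins are motor proteins that use ATP to move along microtubules or to take their ends apart. The 42 gene symbols described here are every row of the deposited table, which holds 23260, whose symbol is KIF followed by a number, with or without a letter from A to C, or KIFC1, KIFC2 or KIFC3. They were sorted by textbook role into 14 mitotic kinesins, 15 kinesins of intracellular transport and 13 others, which act in cilia, signalling or microtubule dynamics. The question was how the RNA of each class stood in melanoma xenografts under a BET inhibitor, a BRAF inhibitor or both.

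Mitotic kinesins build and run the spindle. They push the poles apart, hold chromosome arms, trim microtubule ends at the kinetochores and bundle the midzone before cytokinesis, and the RNA of most of them is made late in the cell cycle, in cells that divide. Transport kinesins carry vesicles, organelles and protein complexes along microtubules, and nondividing cells such as neurons use them as well. In bulk tissue, fewer cells of a type and less RNA per cell cannot be told apart.

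A375 is an established human melanoma line with mutant BRAF. Tumors of it were raised on the left and right flank of NOG mice (NOD/Scid/IL2γR-/-), a strain with few lymphoid cells. The RNA of 16 tumors from 8 mice was sequenced on day 5 of intraperitoneal treatment, with 4 tumors from 2 mice in each group. Control mice (2 and 5) had vehicle, J mice (26 and 29) JQ1, which blocks BET proteins, at 50 mg/kg once daily, V mice (16 and 19) Vemurafenib, which blocks mutant BRAF, in doses of 25 mg/kg given 2 times a day, and J+V mice (33 and 34) both drugs. All 4 groups carry the same line in the same host strain, so they hold 1 cell line and not a range of melanomas.

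The values are FPKM, fragments scaled to transcript length and to library size, as the authors deposited them. How many reads lie behind a value is unknown, and no counting error can be given. Tests were made with limma on log2(FPKM + 0.5) over 13426 genes, those that reached 1 FPKM in 4 or more of the 16 tumors, with the mouse as a block, and a gene was called at a Benjamini-Hochberg adjusted p below 0.05 over all of them. Differences and folds are on that log2 scale, which understates the change of low genes. Values of 4 tumors are given in the order left and right flank of the lower-numbered mouse, then left and right of the other. Because the 4 tumors of a group came from 2 mice, the p-values measure mainly the spread between tumors. The block did not correct for this, since its consensus correlation over all genes was below 0 (-0.07). For genes in which the tumors of a mouse are alike, the p-values can therefore be too small.

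Of the 42 kinesins, 33 passed the filter, namely 12 mitotic, 13 transport and 8 other kinesins. KIF2B, a mitotic depolymerase, and KIF25 were listed at 0 in every tumor. KIF4B, an intronless near-copy of KIF4A, was listed at 0 to 0.288 FPKM, and reads of the pair may have been divided between them, so the level of each is uncertain to that extent. KIF12, KIF17, KIF19 and KIF26A reached at most 0.179 FPKM. The 2 others that failed were not at 0. KIF1A, a carrier of synaptic vesicle precursors, ranged from 0.316 to 1.24 FPKM and KIF6 from 0.37 to 1.14. KIF26B passed although 1 of the 4 control tumors alone reached an FPKM of 1.

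In the human genome build hg19 (GRCh37, GENCODE v44 lifted over) the genes lie on many chromosomes. KIF4A is at chrX:69509954-69640736, KIF2C at chr1:45205490-45233439 and KIF20A at chr5:137514408-137523412. KIF11 and KIF20B both lie on the long arm of chromosome 10, at chr10:94333862-94415152 and chr10:91461347-91534696. KIF3C is at chr2:26149467-26205618, KIF13A at chr6:17759414-17987866 and KIF21B at chr1:200938518-200992842.

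The label of the tumors was checked against listed markers. SOX10 was at 8.95 to 20.9 FPKM, MITF at 6.88 to 12.8 and MLANA at 3.42 to 7.46, while the pigment genes PMEL and TYR reached at most 0.305 FPKM and DCT was listed at 0. Of the 8 melanoma markers 5 passed the filter, and 2 of them, S100B and MLANA, were called higher in J+V than in control and none lower. S100B was at 37.1 to 63.7 FPKM in J+V and at 12.7 to 27.9 in the other tumors, and S100A1 at 45.0 to 104 in J+V and 35.1 to 84.2 in the others. Of 6 fibroblast markers, LUM, DCN and PDGFRB were called higher in J+V than in control. COL1A1, COL1A2 and COL3A1 were not called, with log2 differences of -0.16 ± 0.39, 0.16 ± 0.37 and 0.50 ± 0.30 (SE). The fibroblast list summed to 36.2 to 121 FPKM in control and 62.4 to 115 in J+V, so the sums overlapped. The overlap came from control tumor 5R alone, since the 3 other control tumors summed to 36.2 to 40.9 FPKM, below all J+V tumors. These 3 control tumors also lay below all J tumors (57.3 to 74.1 FPKM) and all V tumors (55.5 to 112). A higher sum than theirs was thus not particular to J+V. The 5 endothelial markers summed to at most 1.94 FPKM in any tumor, with CDH5 at 0 to 0.031 FPKM, and of the 6 leukocyte markers CD68 and AIF1 passed the filter with neither called. The part of other cells in the results was not tested. No source used here states whether reads of the host were taken out.

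In J+V the mitotic kinesins, as sorted here, stood below control almost as a class. Of the 12 that passed the filter, 11 fell and none rose, where 20.5% of all genes tested were called lower and 16.6% higher. Their median log2 difference was -1.12, a 2.17-fold lower level, beside -0.03 over all genes tested. The exception was KIF18A, whose difference of -0.46 ± 0.23 (SE) missed the threshold. In 8 of the 12, namely KIF2C, KIF4A, KIF15, KIF18B, KIF20A, KIF22, KIF23 and KIFC1, each of the 4 J+V tumors lay below each of the other 12 tumors, beside 6.09% of all genes tested. In none did they all lie above, beside 3.97% of all genes.

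**Figure D1:**
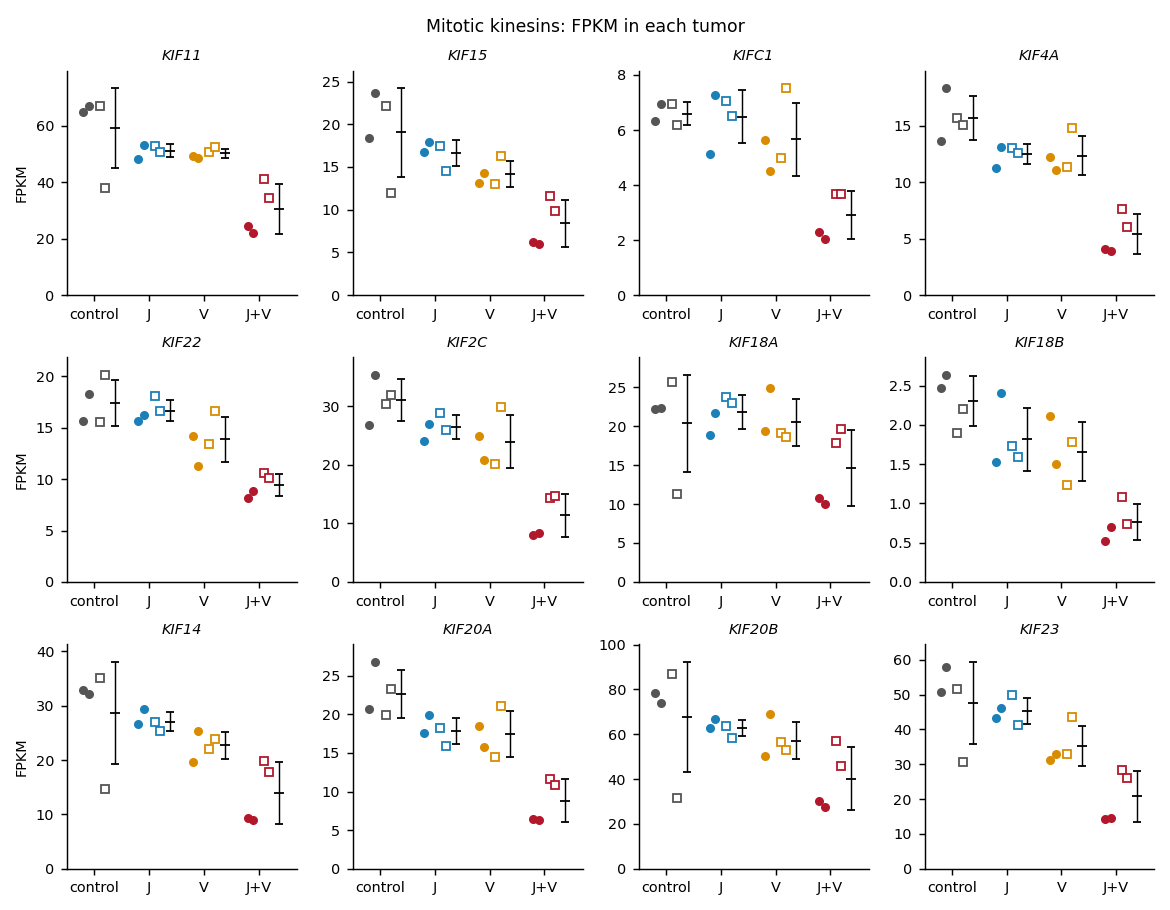
FPKM of the 12 mitotic kinesins that passed the filter, by group (control, J, V, J+V). Points are single tumors, filled circles for the lower-numbered mouse and open squares for the other mouse of the group, and black bars show the mean ± SD of 4 tumors. The J+V tumors are the lowest in most panels, those of mouse 33 lie below those of mouse 34, and control tumor 5R, the right open square, is low for KIF11, KIF14, KIF15, KIF18A, KIF20B and KIF23.

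Among the kinesins that make the spindle bipolar, KIF11 (Eg5) slides antiparallel microtubules apart and KIF15 helps to keep the poles separate. KIF11 was at 64.8, 66.9, 67.0 and 37.8 FPKM in control tumors and at 48.2, 53.1, 52.6 and 50.5 in J tumors. It was at 49.3, 48.6, 50.5 and 52.4 in V tumors and at 24.3, 21.9, 41.1 and 34.5 in J+V tumors. The last control tumor, 5R, lay within the range of the J+V tumors, and the 3 others lay above all of them. KIF11 differed between J+V and control by -0.95 ± 0.19 (SE), adjusted p = 0.00139, a 1.93-fold fall. KIF15 fell from 19.0 ± 5.21 FPKM (SD, n = 4) in control to 8.40 ± 2.73 (SD, n = 4) in J+V, a log2 difference of -1.14 ± 0.21 (SE), adjusted p = 8.09e-04. KIFC1 (HSET) moves toward microtubule minus ends, focuses the poles and gathers extra centrosomes. It was at 6.34, 6.95, 6.93 and 6.17 FPKM in control, 5.13, 7.28, 7.06 and 6.50 in J, 5.63, 4.50, 4.99 and 7.53 in V and 2.27, 2.02, 3.67 and 3.68 in J+V. Its J+V tumors did not overlap any other group, and it fell by 2.13-fold (-1.09 ± 0.17 (SE), adjusted p = 3.73e-04).

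KIF4A and KIF22 (Kid) bind chromosome arms, and KIF4A also sets the length of the midzone together with PRC1. KIF4A had the largest fitted fall of the 33 kinesins. It stood at 13.6, 18.3, 15.6 and 15.1 FPKM in control tumors and 11.2, 13.1, 13.0 and 12.6 in J tumors. In V tumors it stood at 12.2, 11.1, 11.3 and 14.8 and in J+V tumors at 4.12, 3.89, 7.62 and 6.07. No J+V tumor reached the lowest of the others, and the log2 difference from control was -1.49 ± 0.16 (SE), adjusted p = 3.64e-05, a 2.80-fold fall. KIF22 fell less, from 17.4 ± 2.21 FPKM (SD, n = 4) to 9.42 ± 1.11 (SD, n = 4), with a log2 difference of -0.85 ± 0.11 (SE), adjusted p = 1.08e-04. The size of the fall thus ranged widely within this pair.

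At microtubule ends, KIF2C (MCAK) depolymerizes microtubules at centromeres and helps to correct wrong attachments. KIF2C was at 26.8, 35.4, 30.4 and 32.0 FPKM in control, 24.1, 27.1, 28.9 and 25.9 in J, 24.9, 20.8, 20.2 and 30.0 in V and 8.05, 8.43, 14.4 and 14.8 in J+V. Its J+V tumors stood apart from all others, at a log2 difference from control of -1.46 ± 0.18 (SE), adjusted p = 6.40e-05. KIF18B, which shortens astral microtubules, was a low gene. It went from 1.90 to 2.64 FPKM in control to 0.523 to 1.08 in J+V, a log2 difference of -1.16 ± 0.16 (SE), adjusted p = 1.24e-04. KIF18A, which dampens the movements of chromosomes at the metaphase plate, was at 22.2, 22.3, 25.7 and 11.3 FPKM in control, 18.8, 21.7, 23.7 and 23.0 in J, 19.3, 24.9, 19.1 and 18.6 in V and 10.8, 10.0, 17.8 and 19.7 in J+V. The tumors of mouse 33 and control tumor 5R were alike and low, and the tumors of mouse 34 lay just below the J and V tumors or among them. The 95% interval of its difference, -0.96 to 0.03, spans no change and a fall as large as that of KIF11, with an adjusted p of 0.13. Without tumor 5R the difference was -0.72 ± 0.20 (SE), adjusted p = 0.0119.

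At the midzone and in cytokinesis, KIF23 (MKLP1) forms centralspindlin with RACGAP1, KIF20A (MKLP2) brings the chromosomal passenger complex to the midzone, and KIF14 binds citron kinase (CIT) and PRC1. KIF20A was at 20.7, 26.8, 19.9 and 23.3 FPKM in control and 17.5, 19.9, 18.3 and 15.9 in J. It was at 18.5, 15.7, 14.4 and 21.1 in V and 6.45, 6.35, 11.6 and 10.9 in J+V, below every other tumor. Its log2 difference from control was -1.36 ± 0.18 (SE), adjusted p = 9.79e-05, a 2.56-fold fall. KIF23 was at 50.8, 57.8, 51.5 and 30.7 FPKM in control, 43.4, 46.2, 49.9 and 41.4 in J, 31.2, 32.9, 33.1 and 43.6 in V and 14.3, 14.4, 28.3 and 26.0 in J+V. Its 4 J+V tumors were again the lowest, with a log2 difference of -1.21 ± 0.22 (SE), adjusted p = 9.22e-04. KIF14 fell from 28.7 ± 9.41 to 13.9 ± 5.64 FPKM (SD, n = 4), a log2 difference of -1.03 ± 0.26 (SE), adjusted p = 0.00751. KIF20B (MPP1), which also acts in cytokinesis, was just inside the threshold at -0.71 ± 0.27 (SE), adjusted p = 0.0485, from 67.7 ± 24.7 to 40.2 ± 13.9 FPKM (SD, n = 4). Control tumor 5R held 31.5 FPKM of KIF20B, near the level of mouse 33, and without it the difference was -1.04 ± 0.20 (SE), adjusted p = 0.0014. Its call against control held under 9 of the 36 alternative settings.

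The class as a whole was followed in each tumor as the mean log2 level of its 12 members relative to the control mean. This mean was 0.037, 0.21, 0.11 and -0.36 in control tumors, -0.22, -0.028, -0.053 and -0.18 in J, -0.30, -0.32, -0.39 and -0.11 in V and -1.42, -1.44, -0.65 and -0.79 in J+V. Every J+V tumor lay below every other tumor. The same mean over the 13 transport kinesins was 0.016, 0.031, -0.046 and -0.001 in control, 0.007, 0.093, 0.039 and 0.11 in J, -0.14, -0.028, 0.079 and 0.039 in V and -0.063, -0.11, -0.11 and -0.21 in J+V. The J+V tumors were thus low in this class as well, and 1 V tumor lay among them. The mitotic mean minus the transport mean ran from -0.36 to 0.18 in control, from -0.30 to -0.09 in J and from -0.47 to -0.15 in V. In J+V it ran from -1.35 to -0.54, below all 12 other tumors. These class means are descriptions and were not tested.

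**Figure D2:**
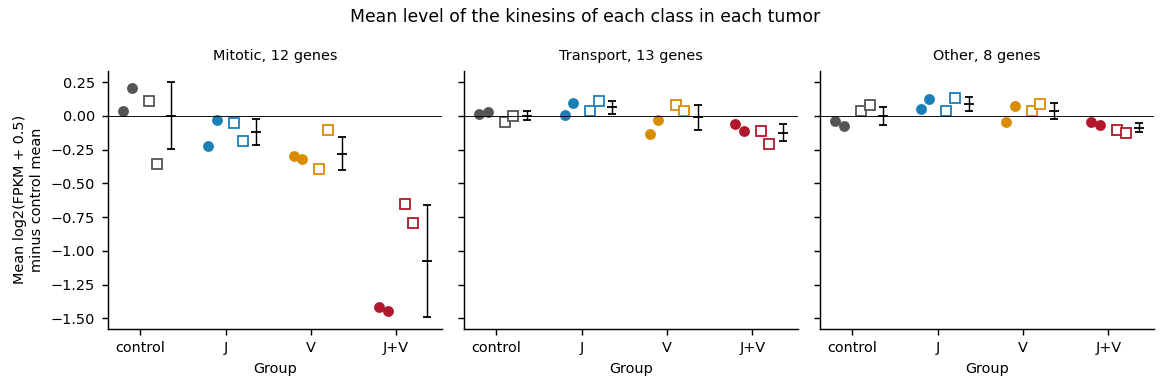
Mean log2(FPKM + 0.5) of the mitotic (12), transport (13) and other (8) kinesins that passed the filter in each tumor, relative to the control mean, by group. Filled circles and open squares are the tumors of the 2 mice of a group, and bars show the mean ± SD of 4 tumors. The mitotic mean lies between -1.44 and -0.65 in the J+V tumors, while the transport mean stays between -0.21 and 0.11 in all 16 tumors.

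The 2 J+V mice differed. In all 12 mitotic kinesins both tumors of mouse 33 lay below both tumors of mouse 34, whereas 21.2% of all genes tested did so. Of the 13 transport kinesins 2 did so (KIF5B and KIF16B) and of the 8 others 1 did (KIF24). Leaving out mouse 33 changed the median difference of the mitotic class from control to -0.76, with 9 members called lower, and leaving out mouse 34 changed it to -1.47, with 12. The counts without mouse 33 or 34 are given without the share of all genes called in those fits. With each mouse's tumors averaged to 1 value, 9 of the 12 mitotic kinesins were past the threshold against control, and KIF14, KIF18A and KIF20B were not. In that fit 2120 of all 13426 genes tested were called lower. Within J+V, the gap between the mice was thus larger than that between tumors of a mouse for this class.

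Because the mitotic members moved together, their promoters were compared with those of the other kinesins. RefSeq promoters (assembly GRCh38.p14, 250 bases before to 50 after the start) were at hand for 14 of 14 mitotic and 11 of 15 transport kinesins, and for 9 of the 13 others. They were searched on both strands for TTTGAA, a form of the cell cycle homology element, and for CCAAT, the box of NF-Y. The MuvB complexes of dividing and resting cells bind the element, and the box often lies upstream of it. The 2 motifs were chosen after the expression values were seen, no enrichment was tested, and no 2 matches overlapped. TTTGAA was in 10 of the 14 mitotic promoters, in 1 of 11 transport promoters (KIF5B) and in 0 of the 9 others, beside 18.2% of the 27305 genes of the promoter table. CCAAT was in 11 of 14 mitotic, 4 of 11 transport and 3 of 9 other promoters, beside 39.7% of all genes. A CCAAT box that began 15 to 60 bases upstream of a TTTGAA was in 7 mitotic promoters, those of KIF4A, KIF4B, KIF11, KIF14, KIF18A, KIF18B and KIFC1, and in no promoter of the other kinesins, beside 1.59% of all genes.

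The windows below run from 120 bases before the start to 20 from the start on, 5′ to 3′ on the gene's strand, with each TTTGAA and CCAAT (or TTCAAA and ATTGG, their reverse complements) in capitals. They show the paired motifs in members that fell, a promoter with the motifs closer together, fallen members without TTTGAA, and the abundant transport motor KIF5B for contrast. KIF4A (chrX:70289984-70290123) and KIF11 (chr10:92593010-92593149) hold the motifs 24 and 25 bases apart, start to start, and KIF14 (chr1:200620732-200620871) holds them 23 apart. In KIFC1 (chr6:33391703-33391842) a box lies 50 bases from the TTTGAA, and KIF18B (chr17:44947754-44947893) has a box at 57 and another at 34. KIF23 (chr15:69414229-69414368) has them closer than the limit of 15. KIF20A (chr5:138178992-138179131) has CCAAT without TTTGAA, and KIF2C (chr1:44739717-44739856) has neither. In KIF5B (chr10:32056406-32056545) the TTTGAA begins 140 bases before the start, upstream of the window.
KIF4A: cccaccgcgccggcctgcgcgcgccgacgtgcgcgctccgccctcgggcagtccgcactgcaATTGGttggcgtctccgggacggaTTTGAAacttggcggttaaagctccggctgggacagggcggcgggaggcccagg
KIF11: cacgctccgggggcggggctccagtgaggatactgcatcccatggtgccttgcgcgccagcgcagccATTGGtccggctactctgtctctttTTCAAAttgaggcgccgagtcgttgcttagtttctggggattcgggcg
KIF14: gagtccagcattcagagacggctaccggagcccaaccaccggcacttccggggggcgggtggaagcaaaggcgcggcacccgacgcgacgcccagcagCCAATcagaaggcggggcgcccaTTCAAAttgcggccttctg
KIFC1: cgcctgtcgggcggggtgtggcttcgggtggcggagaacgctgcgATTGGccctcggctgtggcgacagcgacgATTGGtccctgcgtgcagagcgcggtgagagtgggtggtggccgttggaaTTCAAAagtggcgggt
KIF18B: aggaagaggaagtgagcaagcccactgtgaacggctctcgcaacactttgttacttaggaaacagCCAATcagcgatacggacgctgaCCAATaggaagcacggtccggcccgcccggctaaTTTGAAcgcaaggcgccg
KIF23: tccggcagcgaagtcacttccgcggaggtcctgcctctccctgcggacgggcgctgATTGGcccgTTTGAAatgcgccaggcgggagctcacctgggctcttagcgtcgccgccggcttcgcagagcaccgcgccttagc
KIF20A: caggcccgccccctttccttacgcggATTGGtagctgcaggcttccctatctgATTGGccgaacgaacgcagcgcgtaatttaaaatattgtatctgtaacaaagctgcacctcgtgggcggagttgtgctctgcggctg
KIF2C: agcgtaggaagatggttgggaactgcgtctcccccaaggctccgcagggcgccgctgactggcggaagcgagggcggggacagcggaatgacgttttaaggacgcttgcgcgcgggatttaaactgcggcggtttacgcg
KIF5B: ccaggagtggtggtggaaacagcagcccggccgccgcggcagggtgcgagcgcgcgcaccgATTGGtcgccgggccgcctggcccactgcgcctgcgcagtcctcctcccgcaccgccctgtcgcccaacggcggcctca

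Members with and without the exact letters TTTGAA did not separate by the size of the fall. KIF2C and KIF20A, without TTTGAA in this window, fell by 2.74-fold and 2.56-fold, and KIF18A, which holds the paired motifs 35 bases apart, was the member whose difference was not called. Other spellings of the element were not searched, so a promoter without TTTGAA may still hold the element. A match is a description of these letters and no evidence of a bound site.

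**Figure D3:**
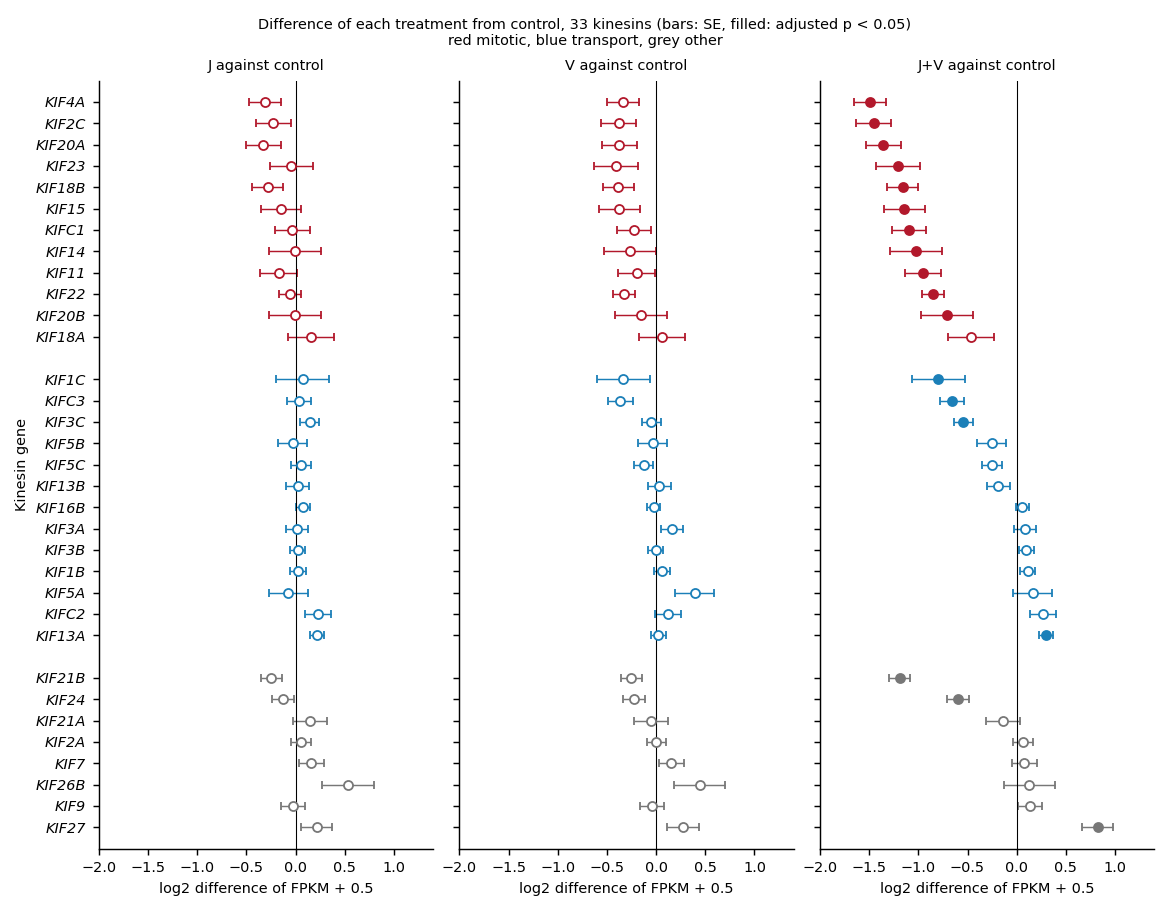
Log2 difference of FPKM + 0.5 from control in J, V and J+V for the 33 kinesins that passed the filter, with bars of 1 SE (limma, 4 tumors a group). Red points are mitotic, blue transport and grey other kinesins, and filled points have an adjusted p below 0.05. Filled points appear in the J+V panel alone, 11 of them red and left of 0, and the blue points lie on both sides of 0.

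The calls among the transport kinesins were in both directions, and their number was near the share of all genes. Of 13 that passed the filter, 3 were lower and 1 higher in J+V than in control, beside the 20.5% lower and 16.6% higher among all genes tested. Their median log2 difference was 0.06, while the mean over the same members was -0.12, opposite in sign. With every tumor scaled to a common sum, 5 were lower and none higher, with a median of -0.15. Under that scaling 4686 of all 12995 genes tested were lower and 771 higher, with a median of -0.23. With the values as deposited, KIF3C, KIFC3 and KIF1C fell, and KIF13A rose.

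KIF3A, KIF3B and KIF3C are the motor subunits of the heterotrimeric kinesin that works in cilia and axons, in which KIF3A pairs with KIF3B or KIF3C. KIF3C was at 4.77, 5.49, 4.71 and 5.86 FPKM in control and 4.87, 6.22, 5.77 and 6.43 in J. It was at 5.11, 4.37, 5.08 and 5.48 in V and 3.29, 3.55, 3.19 and 3.60 in J+V. It was the 1 transport kinesin, of the 13 that passed the filter, whose J+V tumors all lay below the other 12. That count is near the 6.09% of all genes tested that did so. KIF3C fell by 1.46-fold (-0.54 ± 0.10 (SE), adjusted p = 7.33e-04). Its partner KIF3A was at 9.43 to 15.5 FPKM in control and 12.4 to 14.9 in J+V, and KIF3B at 21.8 to 26.5 and 23.3 to 26.6. Their differences of 0.08 ± 0.11 and 0.10 ± 0.08 (SE) were not called.

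The heavy chains of conventional kinesin are KIF5A, KIF5B and KIF5C, of which KIF5B is the form of most cells and the others are known from neurons. KIF5B was the most abundant kinesin per transcript length, at 126, 124, 131 and 72.4 FPKM in control, 109.8, 109, 111 and 103 in J, 96.3, 119, 113 and 104 in V and 87.7, 80.0, 107 and 96.7 in J+V. Control tumor 5R was the lowest of all 16. The J+V difference of -0.26 ± 0.15 (SE), adjusted p = 0.185 was not called, and without tumor 5R it was -0.46 ± 0.09 (SE), adjusted p = 0.00184. KIF5C (2.26 to 3.44 FPKM) and KIF5A (1.14 to 2.99) were low genes whose differences from control, -0.25 ± 0.10 and 0.16 ± 0.20 (SE), were not called.

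Of the vesicle carriers related to KIF1, KIF13A takes recycling endosome cargo and, in melanocytes, pigment proteins to melanosomes. It was at 8.25, 9.18, 8.89 and 9.07 FPKM in control, 9.55, 9.99, 11.1 and 11.0 in J, 9.10, 8.16, 10.2 and 8.61 in V and 11.0, 11.4, 10.5 and 11.1 in J+V. All J+V tumors lay above all control tumors but among the J tumors, and the rise was 1.23-fold (0.30 ± 0.07 (SE), adjusted p = 0.00613). When every tumor was scaled to a common sum, which shifted the median of all genes from -0.03 to -0.23, this rise was no longer called, nor was it with each mouse's tumors averaged (adjusted p = 0.0531) or without mouse 33. KIF1C, a carrier of dense-core vesicles, was at 6.40, 6.22, 4.89 and 3.42 FPKM in control, 6.55, 6.04, 4.99 and 4.22 in J, 2.18, 3.82, 4.59 and 6.12 in V and 4.12, 1.89, 3.37 and 1.99 in J+V. The groups overlapped, the tumors of mouse 33 were both the highest and the lowest of J+V, and its fall of -0.80 ± 0.27 (SE), adjusted p = 0.0305 was lost without mouse 2, 33 or 34 and without any of the tumors 2L, 2R, 5L, 33R or 34R. It was also lost with each mouse's tumors averaged (adjusted p = 0.0872) and with no filter on low values (adjusted p = 0.0509). KIF1B (16.4 to 21.6 FPKM), KIF16B (6.51 to 8.05) and KIF13B (4.48 to 7.63) were not called.

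KIFC2 and KIFC3 move toward minus ends. KIFC3, known from the Golgi and from cell junctions, was at 5.46, 7.82, 6.02 and 7.10 FPKM in control, 5.84, 7.26, 6.83 and 6.95 in J, 5.25, 4.13, 4.50 and 6.21 in V and 3.43, 4.49, 4.20 and 3.82 in J+V. Its J+V tumors lay below all control and J tumors and overlapped the V tumors, with a difference from control of -0.66 ± 0.12 (SE), adjusted p = 0.00114. KIFC2 was at 1.72 to 2.53 FPKM in control and 2.06 to 3.23 in J+V, and its difference of 0.27 ± 0.13 (SE) was not called. KIF1A, under the filter, is a neuronal carrier. It was at 0.984, 0.822, 0.964 and 1.08 FPKM in control, 0.584, 0.703, 0.524 and 0.747 in J, 1.24, 0.835, 0.822 and 0.938 in V and 0.316, 0.364, 0.35 and 0.431 in J+V, so that every J+V tumor was below every other. In a fit without the filter it was called lower in J+V than in each other group, with an adjusted p of 1.83e-04 against control. KIF6, 1 of the others under the filter, was called higher in J+V than in control in that fit, by 0.43 ± 0.13 (SE), adjusted p = 0.0270, and was not called against J or V. It was at 0.540 to 1.14 FPKM in J+V and 0.370 to 0.607 in control, so the groups overlapped.

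**Figure D4:**
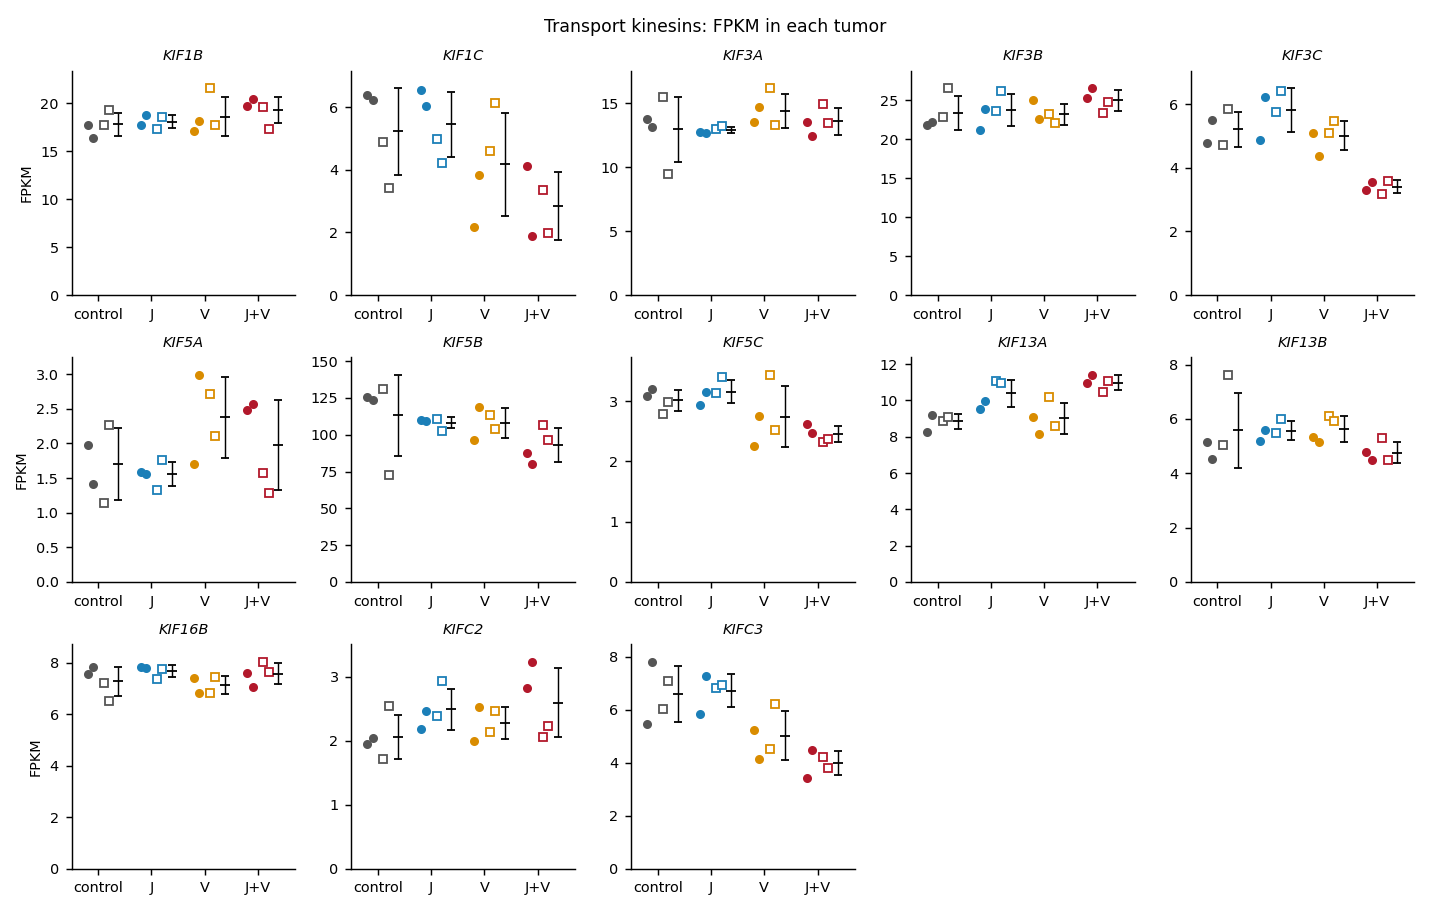
FPKM of the 13 transport kinesins that passed the filter, by group. Filled circles and open squares are tumors of the 2 mice of a group, and black bars show the mean ± SD of 4 tumors. KIF3C is the panel in which the J+V tumors lie below all others, between 3.19 and 3.60 FPKM. Among all genes tested 6.09% did so, and most panels show groups that overlap.

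Of the 8 other kinesins that passed the filter, KIF21B and KIF24 fell and KIF27 rose in J+V against control, with a median log2 difference of 0.07. Among all genes tested 20.5% were lower and 16.6% higher, so these counts were near the share of all genes. KIF21B, which limits microtubule growth and is known from neurons and lymphocytes, was at 3.65, 3.23, 2.85 and 3.25 FPKM in control and 2.22, 2.45, 2.80 and 3.21 in J. It was at 2.27, 2.59, 2.79 and 2.94 in V and 1.11, 1.07, 1.30 and 1.07 in J+V. The J+V tumors were the 4 lowest, and the fall of -1.19 ± 0.11 (SE), adjusted p = 2.31e-05 was within the range of those of the mitotic kinesins. KIF24, which holds back cilium formation at the mother centriole, fell from 3.17 ± 0.421 to 1.92 ± 0.192 FPKM (SD, n = 4), with a log2 difference of -0.60 ± 0.11 (SE), adjusted p = 0.00117. KIF27, a ciliary relative of KIF7, was at 4.92, 3.68, 4.88 and 3.05 FPKM in control, 5.69, 5.02, 4.15 and 4.43 in J, 4.07, 6.98, 4.64 and 4.72 in V and 7.34, 8.99, 6.33 and 7.83 in J+V. All J+V tumors lay above the control and J tumors, 1 V tumor lay among them, and the rise was 1.77-fold (0.82 ± 0.16 (SE), adjusted p = 0.00145). It was the largest rise of the family. KIF2A, a depolymerase close to KIF2C that also works in nondividing cells, stood at 34.7 ± 5.82 FPKM (SD, n = 4) in control and 36.0 ± 1.37 (SD, n = 4) in J+V, and its difference of 0.06 ± 0.10 (SE) was not called. KIF2A was sorted with the others and not with KIF2C, so the counts of the mitotic class do not include it. KIF7, a regulator of Hedgehog signalling, KIF9, KIF21A and KIF26B were not called either.

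Partners of the kinesins were taken from a list that was chosen, like the others, with earlier results of these data known. All 9 spindle and cytokinesis partners fell in J+V, beside the 20.5% of all genes tested that were lower, with a median log2 difference of -1.27. CENPE, itself a kinesin of the kinetochore whose symbol is outside the KIF series, was just inside the threshold at -0.86 ± 0.32 (SE), adjusted p = 0.0489. TPX2, which targets KIF15 to the spindle, fell by 2.62-fold (-1.39 ± 0.18 (SE), adjusted p = 8.85e-05). PRC1, the midzone bundler that KIF4A and KIF14 bind, fell by 3.07-fold (-1.62 ± 0.20 (SE), adjusted p = 6.00e-05). RACGAP1, the other subunit of centralspindlin, differed by -1.14 ± 0.14 (SE), CIT by -1.26 ± 0.14, ECT2 by -0.88 ± 0.23, DLGAP5 by -1.27 ± 0.23, NUSAP1 by -1.30 ± 0.20 and HMMR by -1.32 ± 0.26. Of the 9 transport partners that passed the filter, 1 fell and 1 rose, no more than the 20.5% lower and 16.6% higher among all genes tested. KIFAP3, the adaptor of the KIF3 motor, rose from 47.8 ± 3.98 to 65.8 ± 5.84 FPKM (SD, n = 4), a log2 difference of 0.46 ± 0.08 (SE), adjusted p = 5.66e-04, while the motor subunit KIF3C fell. KIAA1279 (KIFBP), which binds kinesin motor domains, differed by -0.29 ± 0.08 (SE), adjusted p = 0.00791. The kinesin light chains KLC1, KLC2 and KLC4, the mitochondrial adaptors TRAK1 and TRAK2 and the scaffolds MAPK8IP1 and MAPK8IP3 were not called.

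Against J, J+V showed 10 of 12 mitotic kinesins lower and none higher, beside 18.4% and 8.67% of all genes tested, with a median log2 difference of -1.01. KIF18A and KIF20B, at adjusted p of 0.0617 and 0.0625, were not called. With each mouse's tumors averaged 8 were called, without KIF11 and KIF14, where 1577 of all 13426 genes tested were called lower. The largest differences were those of KIF2C at -1.23 ± 0.18, KIF4A at -1.18 ± 0.16 and KIF23 at -1.17 ± 0.22 (SE). Of the 13 transport kinesins, KIF1C, KIF3C, KIF5C and KIFC3 were lower and none was higher. KIF3C differed by -0.69 ± 0.10 (SE), adjusted p = 3.25e-04, and KIF5C by -0.31 ± 0.10 (SE), adjusted p = 0.0301, a call that was lost under 13 of 35 alternative settings. The call of KIF1C against J was lost under 10 of 35, among them averaged mice and leaving out mouse 26, 29, 33 or 34. KIF21B and KIF24 were again lower and KIF27 higher.

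Against V, 9 of 12 mitotic kinesins were lower and none higher in J+V, beside 8.31% and 4.99% of all genes tested, with a median log2 difference of -0.77. KIF14, KIF18A and KIF20B were not called. KIF4A differed by -1.15 ± 0.16 (SE), adjusted p = 0.00114, KIF2C by -1.08 ± 0.18 (SE), adjusted p = 0.00245 and KIF20A by -0.98 ± 0.18 (SE), adjusted p = 0.00403. Among transport kinesins KIF3C was lower and KIF13A higher, and among the others KIF21B and KIF24 were lower and KIF27 higher. The calls of KIF13A, KIF24 and KIF27 against V were lost under 11 of 36, 20 of 35 and 16 of 36 alternative settings. With each mouse's tumors averaged, none of the mitotic kinesins was called against V, where 131 genes of all tested were called lower. Without mouse 33 the count of mitotic kinesins lower than in V was 3, and without V mouse 19 it was 4. The shares of all genes called in those fits are not given here. The comparisons of J+V with control, J and V share the J+V tumors and are not independent.

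With a single drug the levels lay closer to control. No kinesin was called in J or in V against control, and no gene of the whole table was, that is 0.0% of those tested. At an unadjusted p below 0.05, 8.49% of all genes tested for J and 16.1% for V passed. In J the median difference of the mitotic class was -0.10, beside 0.036 over all genes tested. Of its 12 members 11 lay below 0, as did 5407 of all 13426 genes, and 0 had an unadjusted p below 0.05. In V the median was -0.33, beside 0.006 over all genes tested. Here too 11 of 12 lay below 0, as did 6557 of all genes, and 2 had an unadjusted p below 0.05. KIF22 differed between V and control by -0.32 ± 0.11 (SE) and KIF18B by -0.39 ± 0.16, and the adjusted p of KIF22, 0.194, was the smallest of the mitotic class in V. Between J and V no kinesin was called, where 0.283% of all genes were.

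How far J+V departed from the added differences of J and V was estimated for each gene on the log2 scale. All 12 mitotic kinesins had an estimate below 0, as had 8259 of all 13426 genes tested. Their median was -0.67, beside -0.07 over all genes tested. Of the 12, 8 had an unadjusted p below 0.05, where 12.6% of all genes did. None was called, and neither was any other gene of the table (0.0%). KIF2C had an estimate of -0.85 ± 0.25 (SE), adjusted p = 0.191 and KIF4A of -0.84 ± 0.23 (SE), adjusted p = 0.156. The smallest adjusted p of the family, 0.0997, was that of KIF3C at -0.64 ± 0.14 (SE), followed by KIF21B at -0.69 ± 0.15 with 0.103. Without mouse 34 the median of the mitotic class was -1.06 and 8 members were called lower, where 2.36% of all genes tested in that fit were. Without mouse 33 the median was -0.29 and none was called, so the size of the estimate depended on the J+V mouse. The 12 estimates share the same control tumors.

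Control tumor 5R differed from the 3 other control tumors along the GC content of the transcripts. Over 10807 genes with a coding transcript in GENCODE, 80.5% of those tested, the difference of 5R from the other control tumors had a Spearman correlation of 0.67 with GC content, a description across genes of 1 library. The same measure, each tumor against the 3 others of its group, ran from -0.62 (control 5L) to 0.67 (5R) over the 16 tumors, with -0.51 in V tumor 16R and 0.45 in V tumor 19R, so that 5R was not alone in such a relation. The values of the tumors of a group share those tumors and are not independent. The 11 kinesins with a GC content under 43% were all lower in 5R than in each of the other control tumors, with a median log2 difference of -0.81. They include KIF11, KIF14, KIF15, KIF18A, KIF20B and KIF23. Of the 22 kinesins with 43% or more, 3 lay below and 11 above the other control tumors, with a median of 0.15, and KIF2C, KIF4A, KIF18B and KIF20A lay within the range of the other control tumors. The 43% limit was set after the values were seen. KIF20B, at 34.3% GC, held 31.5 FPKM in 5R and 74.0 to 86.8 in the other control tumors, whereas KIF2C, at 50.4%, held 32.0 and 26.8 to 35.4.

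**Figure D5:**
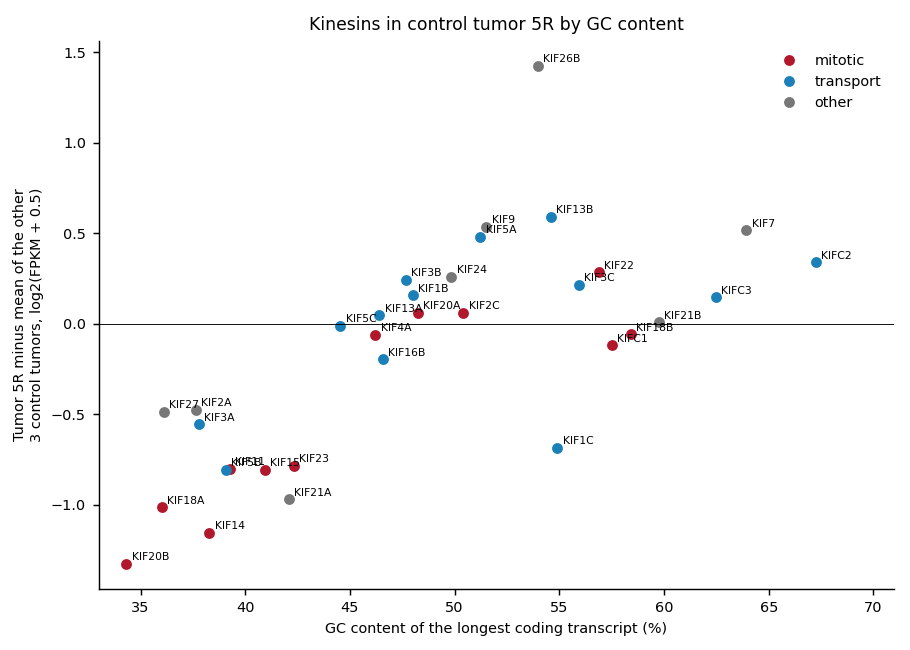
Difference of control tumor 5R from the mean of the other 3 control tumors in log2(FPKM + 0.5), against the GC content of the longest coding transcript in percent, for the 33 kinesins that passed the filter. Red points are mitotic, blue transport and grey other kinesins. Points under 43% GC lie between -1.32 and -0.47, and those above it spread around 0.

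Without tumor 5R all 12 mitotic kinesins were called lower in J+V than in control and in J, and 11 were lower than in V. Of the transport kinesins KIF5B then joined those that fell, and of the others KIF21A fell and KIF9 and KIF26B rose. KIF26B was at 0.366, 0.46, 0.757 and 2.23 FPKM in control, 1.34, 1.50, 1.20 and 1.49 in J, 1.01, 1.18, 1.43 and 1.49 in V and 1.24, 0.816, 0.924 and 0.744 in J+V, so that tumor 5R alone stood above the treated tumors. Without 5R it was also called higher in J and in V than in control, the sole kinesin called under either drug alone. The groups share an estimate of the spread, so leaving out 5R also changed calls in comparisons without control tumors. Counts without 5R are given here without the share of all genes called in that fit. They cannot be read as particular to kinesins. The cause of the difference of 5R was not tested.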

How the data were processed

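Total RNA of 16 A375 xenograft tumors was depleted of ribosomal RNA and sequenced. The authors mapped reads to hg19 with TopHat2, per their methods, and deposited FPKM from Cufflinks, without a stated version. Their annotation: not given in the sources used here. Read counts, which the study tested, are not used here.
FPKM were transformed as log2(FPKM + 0.5), and the 13426 genes that reached 1 FPKM in 4 or more tumors entered limma 3.58.1 (R 4.3.3, mean-variance trend, mouse as block, consensus correlation -0.07). All p-values of genes come from limma, with Benjamini-Hochberg adjustment over those genes. Because the consensus correlation was below 0, the block made the tests less strict, not stricter, for tumors of the same mouse. For J+V against control 2756 genes were called lower and 2223 higher with the block, and 2571 and 2027 without it. The 7 contrasts comprised each treatment against control, J+V against each drug, J against V and the departure from additivity. Data were simulated for J+V against control over 13426 genes. Of genes changed 1.5-fold 58.2% were recovered, of those changed 2-fold 85.1% and of those changed 4-fold 95.5%. The simulated tumors were drawn independently, with no effect of the mouse, and only 67, 67 and 66 genes were changed. These rates are therefore not the power of the real design, in which tumors come in pairs from a mouse and many genes differ. Members, lists and alternatives were chosen with earlier results of these data known. All kinesins are named, those that passed the filter with values, together with the listed partners. Markers came from such lists too, and an endothelial, a leukocyte, a fibroblast, a neuron and a melanoma list were measured. Of the neuron markers SNAP25 alone passed the filter. Promoter sequences are from RefSeq. Python 3.11.15, pandas 2.3.3, scipy 1.17.1 and matplotlib 3.10.9 made the tables and plots.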

Additional observations from a re-analysis of the deposited data

Results flagged for a closer look

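Each of the 33 kinesins that passed the filter was checked in each of the 4 groups for a tumor far from the other 3, by Dixon's ratio of the gap to the range on the log2 scale, at its 95% critical value. Of 132 checks, 8 were past it, and chance alone gives about 1 in 20.
Of the 8, 4 were low values of control tumor 5R. They were KIF11 at 37.8 FPKM against 64.8 to 67.0 in the other control tumors (ratio 0.943), KIF14 at 14.7 against 32.1 to 35.0 (0.900), KIF20B at 31.5 against 74.0 to 86.8 (0.842) and KIF5B at 72.4 against 123.8 to 131 (0.900). All 4 are among the 11 kinesins with a GC content under 43%.
V tumor 16R was high for KIF18A at 24.9 FPKM, against 18.6 to 19.3 in the other V tumors (0.867). V tumor 16L was high for KIF9 at 4.12, against 3.03 to 3.13 (0.893). J tumor 29L was low for KIF16B at 7.36, against 7.76 to 7.83 (0.850), and J tumor 26L was low for KIF9 at 3.09, against 3.41 to 3.46 (0.875).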

How the results depend on the processing

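The count of mitotic kinesins lower in J+V against control was 11 and ranged from 9 to 12 when a tumor or a mouse was left out. It was 10 with no mouse block, 9 with each mouse's tumors averaged, 10 or 11 under the other scalings, filters, pseudocounts and models, and 8 under the study's thresholds (fold above 2, p below 0.01, adjusted p below 0.1). Against J it was 10 and ranged from 7 to 12, with 6 under the study's thresholds. Against V it was 9 and ranged from 3 to 12, with 0 for averaged mice and 2 under the study's thresholds. For J and V against control it was 0 in every refit that left out a tumor or mouse, and for the departure it ranged from 0 to 8, with 1 without tumor 34L and 8 without mouse 34. Under the study's thresholds 320 of all 13426 genes tested were lower against control, 306 against J and 122 against V. With averaged mice 2120, 1577 and 131 were called lower. The ranges over fits that left out a tumor or mouse are given without the share of all genes called in each fit.
The count of transport kinesins lower was 3 against control, 4 against J and 1 against V, and leaving out tumors or mice gave 2 to 4, 2 to 4 and 0 to 1. With a mean FPKM of at least 5 the counts were 1, 1 and 0, and under the study's thresholds 0 in all 3. With a common sum per tumor they were 5 against control and 3 against V, where 4686 and 2658 of all 12995 genes tested were lower. Averaged mice gave 2 against J and 0 against V, and no filter gave 2 against V.
Leaving out tumors or mice moved the median of the mitotic kinesins from -1.12 to between -1.47 and -0.76 against control, from -1.01 to between -1.38 and -0.65 against J and from -0.77 to between -1.17 and -0.40 against V. That of the transport kinesins ranged from -0.118 to 0.0695 against control, from -0.0911 to -0.0115 against J and from -0.225 to -0.0265 against V. Against control it was -0.0424 with no filter, -0.15 with a common sum and 0.13 with upper quartile scaling. Against J it was -0.0845 with a common sum, 0.0507 with upper quartile scaling and 0.0738 with quantile normalization. Against V it was -0.0147 at a mean FPKM of at least 5 and -0.26 with a common sum.
No called gene changed direction under any setting. No paired analysis was possible because the groups share no mouse and the numbers of the tumors mark different animals. The depth behind the FPKM is unknown, so the precision of low genes such as KIF18B and KIF1A cannot be given.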
